A study of Mus musculus with 6 samples.

Results

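Transcripts of 10 endothelial marker genes were examined in sorted distal retinal progenitor cells (RPCs) of the mouse embryo, with and without Pax6. The genes were Kdr, Flt1, Tek, Tie1, Eng, Pecam1, Cdh5, Esam, Cldn5 and Emcn, taken as every probe set whose platform annotation names one of them. They gave 15 of the 45037 probe sets analysed, and 10 of 18193 genes when each gene was counted by whichever of its probe sets had the highest mean of the 6 arrays (its brightest probe set). All 15 carry 1 gene name each. Control RPCs came from Pax6+/+;α-Cre embryos and mutant RPCs from Pax6loxP/loxP;α-Cre embryos, both on the ICR background at E12 (embryonic day 12), with 3 pools of about 1800000 sorted cells in each group and 1 Affymetrix array for each pool. Both groups carried the α-Cre transgene, which places Cre and GFP under the P0 promoter of Pax6 and its α enhancer of the peripheral retina. The sort for GFP was thus aimed at cells of the distal optic cup. The floxed allele loses the start codon of Pax6 and the exons of the paired domain where Cre has acted. The number of embryos behind a pool was not given, and p-values measure the spread between these pools.

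Endothelial cells line blood vessels and are not derived from the neural retina. In the mouse embryo at this stage the eye is supplied by the hyaloid vessels inside the optic cup and by the choroidal vessels outside it, and the retina itself gains vessels only later. VEGF made by neighbouring tissue acts on endothelial cells through the receptors Kdr and Flt1, and angiopoietins act through Tek with its partner Tie1, while Cdh5, Pecam1, Esam and Cldn5 hold the cells together at their junctions. In RNA of a cell pool, more cells of a type and more RNA of a gene in each cell cannot be told apart.

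All 10 genes had a higher mean in mutant than in control RPCs. Here and below, RPCs stands for the sorted pools as the study names them. Which cells of a pool carried a transcript was not tested. Promoters are shown here for Emcn, Tek and Tie1, which rose, and for Kdr, which did not pass the test. They are the ones that held an ETS match, and those of Flt1, Eng and Cldn5, which held none, are not shown. The motif was searched since transcription factors of the ETS family are known to act at many endothelial promoters. Promoters of 7 of the 10 genes were matched by symbol in RefSeq sequence of the build GRCm38.p6, and Pecam1, Cdh5 and Esam were not. Each sequence gives the 250 bases before the annotated start, 5′ to 3′ on the strand of the gene, with capitals for an ETS match (CAGGAA or CCGGAA on either strand). Emcn lies at chr3:137340828-137341077 (plus strand), Tek at chr4:94739039-94739288 (plus strand), Tie1 at chr4:118489850-118490099 (minus strand) and Kdr at chr5:75978456-75978705 (minus strand).
Emcn: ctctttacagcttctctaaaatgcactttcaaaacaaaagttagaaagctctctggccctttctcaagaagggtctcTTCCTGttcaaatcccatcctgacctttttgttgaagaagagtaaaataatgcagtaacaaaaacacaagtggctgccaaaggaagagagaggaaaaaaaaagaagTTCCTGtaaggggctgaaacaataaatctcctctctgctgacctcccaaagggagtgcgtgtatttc
Tek: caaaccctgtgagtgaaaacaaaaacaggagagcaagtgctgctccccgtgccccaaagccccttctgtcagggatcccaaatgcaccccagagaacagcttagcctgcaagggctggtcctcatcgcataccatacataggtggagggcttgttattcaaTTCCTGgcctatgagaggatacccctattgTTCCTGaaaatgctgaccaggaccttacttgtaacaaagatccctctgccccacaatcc
Tie1: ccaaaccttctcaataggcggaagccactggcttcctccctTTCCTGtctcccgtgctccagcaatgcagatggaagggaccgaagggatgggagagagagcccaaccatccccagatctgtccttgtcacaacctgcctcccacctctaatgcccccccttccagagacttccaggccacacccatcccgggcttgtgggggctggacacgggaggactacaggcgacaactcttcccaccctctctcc
Kdr: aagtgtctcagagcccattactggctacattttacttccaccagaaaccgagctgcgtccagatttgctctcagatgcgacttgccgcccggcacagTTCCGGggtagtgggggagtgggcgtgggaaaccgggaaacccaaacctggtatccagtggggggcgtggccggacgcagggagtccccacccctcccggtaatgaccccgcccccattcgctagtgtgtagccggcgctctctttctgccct
An ETS match was found in 4 of the 7 promoters, those of Emcn and Tek with 2 matches each and those of Tie1 and Kdr with 1 each. Of 32851 promoters in the same table, 35.1% held such a match in the same window. The other motifs searched on both strands were AGATAA for GATA factors, found in 0 of 7 and 9.99% of all, ACAAAG for SOX factors, in 2 of 7 (Tek and Eng) and 16.5% of all, and TATAAA for the TATA box, in 1 of 7 (Flt1) and 12.4% of all. None of these motifs holds the letters of another. The matches describe the letters of the windows and say nothing of binding.

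The deposited values are intensities made by RMA, which corrects the background, normalises between arrays and gives 1 value for each probe set, and log2 was taken of them. The median of an array lay between 3.68 and 3.71 on the log2 scale, and replicates correlated with r of 0.995 to 0.997 across all probe sets, against 0.991 to 0.993 between the groups. No array stood apart over all genes, but 1 did for these 10. On control replicate 2 each of the 10 genes had its lowest control value, whereas 34.3% of all genes had theirs on that array. For Pax6, the probe set 1425960_s_at had log2 intensities of 6.34, 6.44 and 6.14 across the control arrays and 4.79, 4.88 and 4.45 across the mutant arrays, a fall with a log2 difference of -1.60 (limma adjusted p = 0.00329). The 4 other Pax6 probe sets had log2 differences from -0.22 to 0.10 and did not pass, and which of them lie in the deleted part was not analysed here. As to the label of the cells, 9 of 10 progenitor markers were measured, each above the array median on every array. Markers of other cell types did so too, such as Hbb-y (control mean 12.52), Pmel (11.42) and Cryaa (9.58). This bar thus does not tell progenitors from other cells. The summed linear intensity of the 9 progenitor genes was 7263 to 7647 on the control arrays and 4704 to 4885 on the mutant arrays. Fgf15 (-1.43), Nr2e1 (-1.06) and Sfrp2 (-0.98) were called lower on the log2 scale. The other 6 progenitor genes had log2 differences from -0.40 to 0.06 and were not called.

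Calls required a fold change of 1.5 or more (0.585 on the log2 scale), p under 0.05 and, after Benjamini-Hochberg adjustment over all 45037 probe sets, p under 0.10, the thresholds of the study's methods, with limma's moderated test. Among the 10 genes, 4 were called higher in mutant RPCs and 0 lower, in a background of 2.28% of all genes called higher. All 10 had a positive log2 difference, as did 47.1% of all genes, and the median was 0.53, against -0.01 over all genes. An adjusted p under 0.10 was reached by 6 of them (7.15% of all genes, with a positive difference). An unadjusted p under 0.05 was reached by 9 of them, and by 4444 of all 18193 genes in either direction. Every mutant array lay above every control array for 9 genes, the exception being Eng, and the background for this is 17.0% of genes. Of the 15 probe sets, 6 were called higher (background 1.67% higher and 2.65% in either direction), and 12 had all mutant above all control arrays (background 13.2%).

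**Figure D1:**
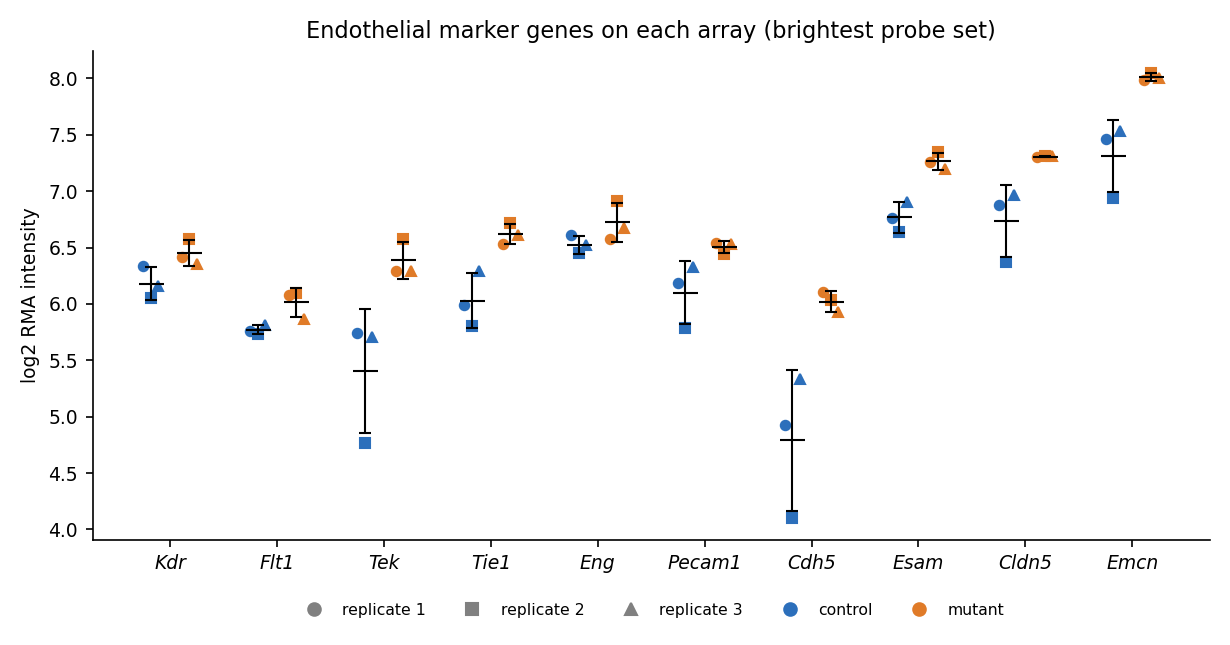
Log2 RMA intensity (y axis) of the 10 endothelial genes (x axis), each by its brightest probe set, with control arrays in blue, mutant arrays in orange, a symbol for each replicate number and black bars for mean and SD of 3 arrays. Control replicate 2, the blue square, is the lowest control value for each of the 10 genes, farthest below the others for Cdh5 (4.11) and Tek (4.77).

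Among the angiopoietin receptors, Tek and Tie1 rose. Tek, the receptor tyrosine kinase that binds angiopoietins, was at 5.74, 4.77 and 5.71 across the control arrays and 6.29, 6.58 and 6.30 across the mutant arrays. Control replicate 2 was about 1 log2 unit below the other control arrays, and the lowest mutant array lay 0.55 above the highest control array. The log2 difference of Tek was 0.98, or 1.98-fold (standard error 0.26, limma adjusted p = 0.078). Tie1, a related receptor that pairs with Tek, was at 5.99, 5.80 and 6.29 in control and 6.53, 6.72 and 6.61 in mutant RPCs. The groups did not overlap, and the log2 difference of 0.59 (standard error 0.13, limma adjusted p = 0.0444) lay just inside the fold change threshold.

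The VEGF receptors gave smaller differences by their brightest probe sets. Kdr, the main signalling receptor for VEGF in endothelium, was at 6.33, 6.05 and 6.16 across the control arrays and 6.42, 6.58 and 6.35 across the mutant arrays. The groups were apart by 0.02, and the log2 difference of 0.27 (95% interval from 0.04 to 0.50, limma adjusted p = 0.169) did not pass. Flt1, a VEGF receptor that also acts as a decoy, was measured by 4 probe sets, which differed among themselves. The brightest (1451756_at) was at 5.76, 5.74 and 5.81 in control and 6.08, 6.10 and 5.87 in mutant RPCs, with a log2 difference of 0.24 (limma adjusted p = 0.135). That of 1440926_at was 0.18, with overlapping groups (limma adjusted p = 0.458). By contrast, 1419300_at was called higher, at 4.10, 3.22 and 4.02 in control and 4.79, 4.78 and 5.03 in mutant RPCs, a log2 difference of 1.09 (standard error 0.22, limma adjusted p = 0.0416). Its value on control replicate 2 lay below the array median, which leaves the size of this rise uncertain. The remaining one, 1454037_a_at, was called with a log2 difference of 0.59 (limma adjusted p = 0.0478), and all 4 were positive. Which Flt1 transcripts each probe set detects was not analysed here.

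Eng, or endoglin, a co-receptor for BMP and TGF-beta ligands on endothelial cells, gave the smallest difference of the 10 by brightest probe sets. Its brighter probe set was at 6.61, 6.45 and 6.52 across the control arrays and 6.58, 6.91 and 6.68 across the mutant arrays. Mutant replicate 1 lay below control replicate 1, and the log2 difference of 0.20 (95% interval from -0.03 to 0.43, limma adjusted p = 0.306) did not pass. The dimmer Eng probe set, with groups that did not overlap, had a log2 difference of 0.38 (limma adjusted p = 0.118).

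Among the junction genes, Cdh5 rose and showed the largest difference of the 10 genes by brightest probe sets. Cdh5 encodes VE-cadherin, the cadherin of endothelial adherens junctions. Its brightest probe set was at 4.93, 4.11 and 5.34 across the control arrays and 6.11, 6.03 and 5.92 across the mutant arrays. The control arrays spread over more than 1 log2 unit while the mutant arrays lay close together, and the lowest mutant array was 0.59 above the highest control array. Its log2 difference was 1.23, or 2.35-fold (standard error 0.28, limma adjusted p = 0.054). The value on control replicate 2 was not far above the array median, which leaves this size less certain. A further Cdh5 probe set, 1422047_at, lay below the array median on all 6 arrays, with overlapping groups and a log2 difference of 0.43 (limma adjusted p = 0.264).

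Esam and Cldn5 had low adjusted p-values but missed the fold change threshold. Esam, an adhesion molecule of endothelial tight junctions, was at 6.76, 6.63 and 6.91 in control and 7.26, 7.35 and 7.19 in mutant RPCs. Its log2 difference of 0.50 had the lowest adjusted p of the 10 genes (standard error 0.09, limma adjusted p = 0.0243). Cldn5, the main claudin of the blood-brain and blood-retina barriers, was at 6.88, 6.37 and 6.96 across the control arrays and 7.30, 7.31 and 7.31 across the mutant arrays. The groups did not overlap for either gene. The log2 difference of Cldn5 was 0.57 (standard error 0.15, limma adjusted p = 0.0792), a 1.48-fold difference just outside the threshold of 1.5, where Tie1 at 1.51-fold was just inside.

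Pecam1, or CD31, an adhesion molecule that blood cells and platelets also carry, did not pass. It was at 6.18, 5.79 and 6.33 in control and 6.54, 6.45 and 6.53 in mutant RPCs, with groups that did not overlap and a log2 difference of 0.41 (95% interval from 0.09 to 0.72, limma adjusted p = 0.142). Emcn, or endomucin, a sialomucin on the surface of endothelium, rose. It was at 7.46, 6.94 and 7.53 across the control arrays and 7.98, 8.05 and 8.00 across the mutant arrays. The lowest mutant array was 0.45 above the highest control array, and the log2 difference was 0.70, or 1.62-fold (standard error 0.15, limma adjusted p = 0.046). By brightest probe sets the order, from the largest difference down, was Cdh5, Tek, Emcn, Tie1, Cldn5, Esam, Pecam1, Kdr, Flt1 and Eng. Each gene's 95% interval overlapped those of its neighbours in this order. The interval of Cdh5 (0.57 to 1.89) lay above those of Kdr (0.04 to 0.50), Flt1 (0.06 to 0.43) and Eng (-0.03 to 0.43). Other probe sets differed, with Flt1 1419300_at at 1.09 (0.56 to 1.62) and Cdh5 1422047_at at 0.43 (-0.03 to 0.90).

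**Figure D2:**
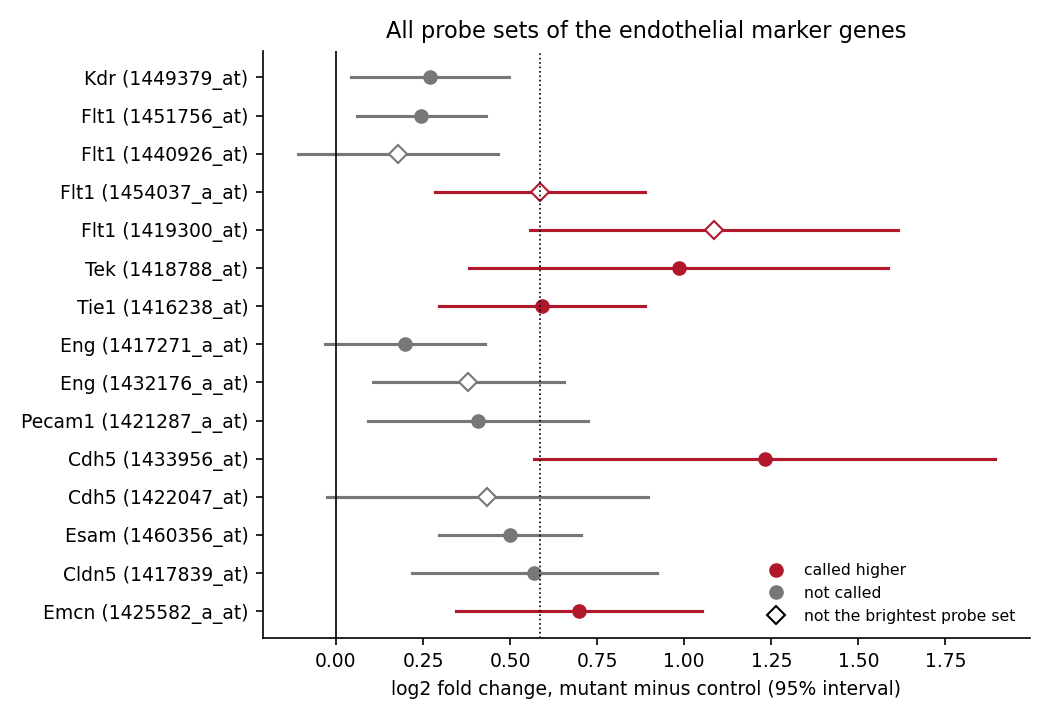
Log2 fold change, mutant minus control (x axis), of each probe set of the 10 genes (y axis) with its 95% interval from limma; red marks called probe sets, open diamonds are probe sets that are not their gene's brightest, and the dotted line is the 1.5-fold threshold. All 15 points lie to the right of 0, from 0.18 to 1.23, and 6 of them are called.

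Calls and some sizes depended on single arrays. Without control replicate 2, the array on which the genes were lowest, the median log2 difference of the 10 genes was 0.41 and 2 were called, Cdh5 (0.89) and Tek (0.67), while Emcn (0.51) and Tie1 (0.48) fell under the threshold of 1.5-fold. Without control replicate 3, 5 were called, Cldn5 (0.68) being added, and without control replicate 1, 2 were called, since Cdh5 (1.30, limma adjusted p = 0.108) and Tie1 (0.57) no longer passed. Leaving out mutant replicate 1, 2 or 3 left 0 called, and these 4 genes had adjusted p-values over 0.10 in each case, with Cdh5 at 1.19, 1.23 and 1.28, Tek at 1.03, 0.89 and 1.03, Emcn at 0.71, 0.68 and 0.70, and Tie1 at 0.64, 0.54 and 0.60. The Flt1 probe set 1419300_at was called without any 1 control array (lowest value 0.81, without control replicate 2) and not without mutant replicate 1, 2 or 3 (1.13, 1.13 and 1.01). The Flt1 probe set 1454037_a_at stayed called without control replicate 3 (0.71) and mutant replicate 3 (0.65) and in none of the other 4 cases, with 0.47 without control replicate 2. Among the other members, Pecam1 went from 0.41 to 0.25 without control replicate 2 and Eng from 0.20 to 0.10 without mutant replicate 2. The Flt1 probe set 1440926_at went from 0.18 to 0.06 without control replicate 1 and to 0.28 without control replicate 3, and the dimmer Cdh5 probe set was called without control replicate 3 (0.64). Over the 15 probe sets, the number called without 1 array ranged from 0 to 8. Of all 45037 probe sets, in either direction, 1232, 1015 and 1210 were called without control replicate 1, 2 and 3, and 886, 925 and 1034 without mutant replicate 1, 2 and 3, against 1195 with all arrays. For the members, every probe set had a positive log2 difference in each of these fits.

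Within the control group the 10 genes shared their lowest array. Control replicate 2 lay below the mean of control replicates 1 and 3 by a median of 0.40 on the log2 scale, a distance close to that between the mutant arrays and the same control pair (median 0.41). Cdh5 and Tek were farthest down on control replicate 2 and farthest up in mutant RPCs. Cdh5 was 1.03 lower on control replicate 2 and 0.89 higher in mutant RPCs, and Tek 0.95 lower and 0.67 higher. Emcn was 0.55 lower and 0.51 higher, whereas Kdr was 0.20 lower and 0.21 higher, Eng 0.12 lower and 0.16 higher and Flt1 0.05 lower and 0.23 higher. Across the 10 genes, which share arrays and a control pair and are no independent replicates, Pearson's r between both distances was 0.874. Control replicates 1 and 3 enter both distances with opposite sign. The same r was 0.312 across 37 other endothelial genes and -0.0813 over all genes. It was 0.809 across 10 ligand genes, 0.632 across 9 progenitor genes and -0.741 across 15 lens and surface ectoderm genes. A high value was thus not particular to the members. Among the ligands, however, control replicate 2 lay below the same pair by a median of only 0.0037, with Angpt1 farthest down. Among the mutant arrays, replicate 2 was the highest for 8 of the 10 genes (32.7% of all genes).

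**Figure D3:**
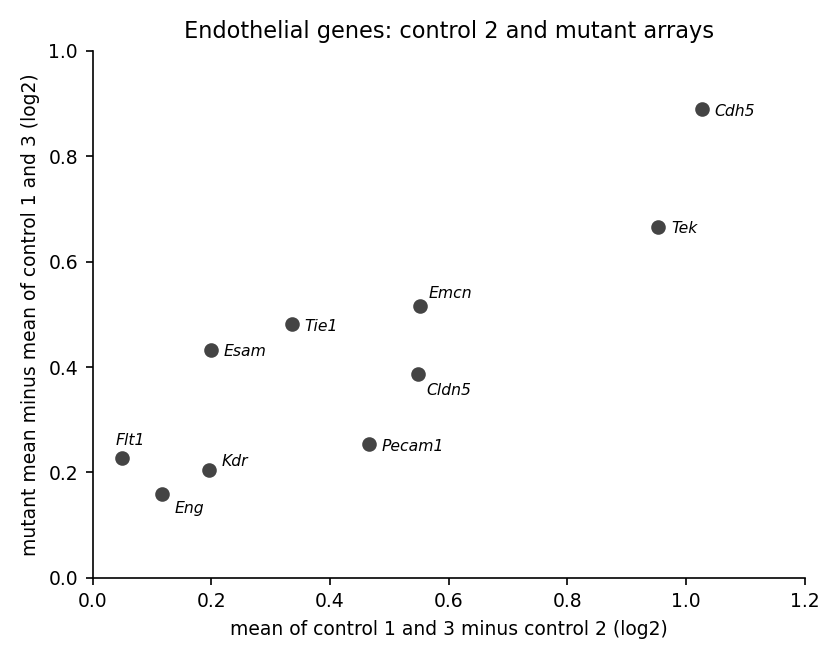
Each point is an endothelial gene by its brightest probe set; the x axis is the mean of control replicates 1 and 3 minus control replicate 2 and the y axis the mutant mean minus the same control pair, both on the log2 scale. The points run from Flt1 and Eng near the origin to Tek (0.95 and 0.67) and Cdh5 (1.03 and 0.89) at the upper right.

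Most of the other endothelial genes measured were higher in mutant RPCs as well. A list of 37 further endothelial genes had a median log2 difference of 0.53, with 12 called higher and 0 lower (background 2.28% higher and 0.918% lower) and 34 positive. Every mutant array lay above every control array for 28 of the 37 (background 17.0%), the 12 called genes among them. Among the transcription factors, Sox7 (log2 difference of 1.11, limma adjusted p = 0.0456) and Sox17 (0.61), of the SoxF group that acts in endothelial and arterial development, rose, as did the ETS factor Fli1 (0.85) and Lmo2 (0.77), a cofactor in blood and endothelial precursors. Among the surface and secreted products, Ramp2 (0.74, limma adjusted p = 0.0083) forms the adrenomedullin receptor with Calcrl and rose. Vwf (0.81), the clotting factor stored in endothelial granules, and Rasip1 (0.75), a Ras-interacting protein needed for vessel lumens, rose as well. So did Robo4 (0.74), an endothelial receptor of the Robo family, the adhesion G protein-coupled receptors Adgrl4 (0.73) and Adgrf5 (0.63), the lectin Clec14a (0.72) and the surface protein Ecscr (0.59). Ecscr lay just inside the fold change threshold, and Fli1 just inside that on the limma adjusted p (0.0975). On control replicate 2, Robo4 (3.75) and Adgrl4 (3.72) lay near the array median, which leaves the size of their rises uncertain. Of 16 alternative fits, Ramp2 was called in 16 and Rasip1 in 14, and Vwf, Lmo2, Sox17 and Adgrf5 in 11. Sox7 and Clec14a were called in 10, Robo4 and Adgrl4 in 8, and Fli1 and Ecscr in 7. Control replicate 2 was the lowest control array for 27 of the 37 genes.

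Among 10 measured genes for ligands of endothelial receptors, Angpt1 was the 1 called by its brightest probe set. Adm was called by its dimmer probe set only (1.08, limma adjusted p = 0.0109). Angpt1, the activating ligand of Tek, was at 3.92, 3.06 and 4.07 across the control arrays and 5.04, 5.00 and 5.02 across the mutant arrays, a log2 difference of 1.34 (standard error 0.24, limma adjusted p = 0.0276). Control replicate 2 lay below the array median here too, which leaves the size uncertain. The dimmer Angpt1 probe set lay below the array median on all 6 arrays, with groups that did not overlap. Its log2 difference of 0.51 (limma adjusted p = 0.0461) missed the fold change threshold, so it was not called. Vegfa, which encodes the main ligand of Kdr and Flt1, was at 6.47, 6.46 and 6.15 in control and 6.60, 6.75 and 6.54 in mutant RPCs. The Vegfa groups did not overlap, and the log2 difference of 0.27 (limma adjusted p = 0.212) did not pass. Angpt2, a context-dependent ligand of Tek, had a log2 difference of 0.06 (limma adjusted p = 0.583). The list of ligands had a median of 0.11, with 1 called higher and 0 lower. For ligands and other endothelial genes together, 13 of 47 were called higher, and without 1 array 4 to 16, fewest without mutant replicate 2, with 6 without control replicate 2, 8 without control replicate 1, 5 without mutant replicate 1, 6 without mutant replicate 3 and 16 without control replicate 3. Angpt1 was called in 15 of 16 alternative fits.

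**Figure D4:**
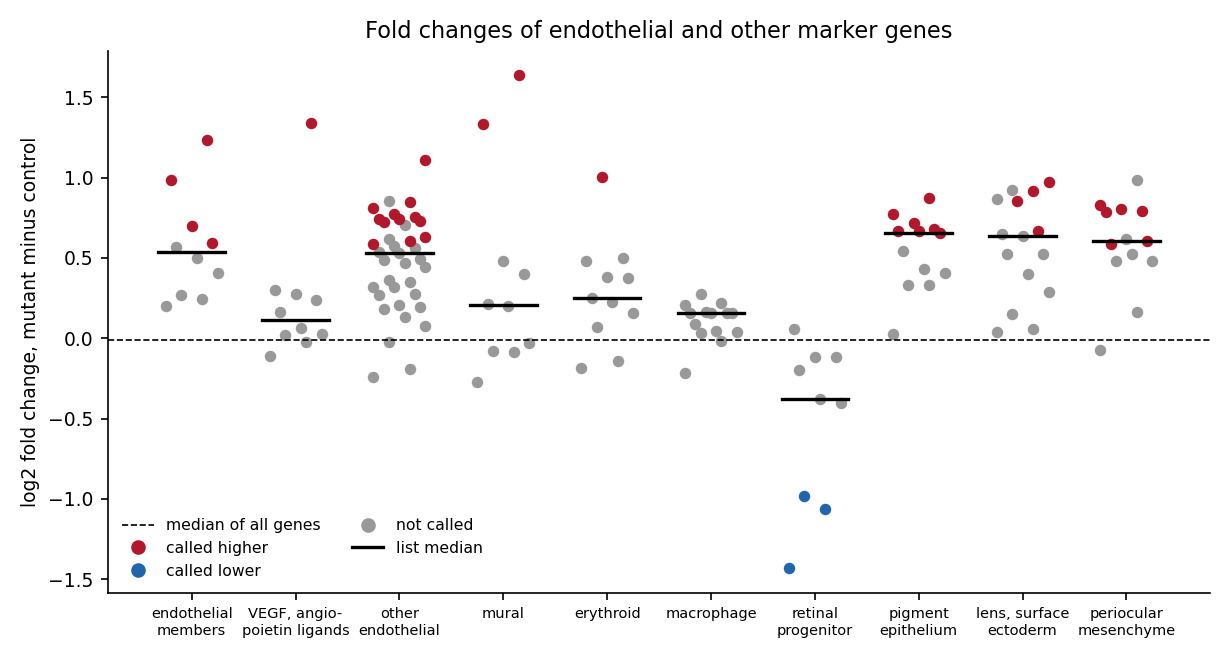
Log2 fold change, mutant minus control (y axis), of each measured gene of 10 marker lists (x axis), by its brightest probe set; red and blue points were called higher and lower, grey points were not called, and black lines are list medians. All 10 endothelial genes (median 0.53) lie above the dashed median of all genes (-0.01), and 34 of the 37 further endothelial genes (median 0.53) are positive.

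Markers of other cell types near the optic cup differed in the same arrays. The summed linear intensity of the 10 endothelial genes was 855, 668 and 900 in control and 1146, 1224 and 1133 in mutant RPCs, 1.45 times higher by the means. For 13 pigment epithelium genes the sum was 6571 to 8029 in control and 10324 to 10437 in mutant RPCs, with 7 genes called higher, including Trpm1 (0.87), Gpr143 (0.77) and Mlana (0.72), and control replicate 2 was lowest for 12 of the 13. The sum of 15 lens and surface ectoderm genes was 2969 to 4298 in control and 5401 to 5800 in mutant RPCs, with 4 called higher, including Mip (0.98), Cryba4 (0.92) and Cdh1 (0.86), and here control replicate 3 was lowest for 11 of the 15. The sum of 13 periocular mesenchyme genes was 744 to 797 in control and 1107 to 1514 in mutant RPCs, with 6 called higher, including Foxc1 (0.83), Dcn (0.80) and Col1a2 (0.79). No gene of these lists was called lower. The part of these cell types in the endothelial differences was not tested.

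Mural cells and blood, which accompany endothelium in vessels, were less uniform. Of 10 mural genes, 2 were called higher, the pericyte receptor gene Pdgfrb (1.64) and the channel subunit gene Abcc9 (1.33). They lay below the array median on 2 and 1 control arrays. Rgs5 and Cspg4, also known from pericytes, lay below the array median on all 6 arrays with log2 differences of -0.08 each. Kcnj8 lay below it on all 6 arrays too, but its log2 difference was 0.40 (limma adjusted p = 0.0599). Mcam was at 0.48 (limma adjusted p = 0.0475) and Notch3 at -0.27 (limma adjusted p = 0.13). Every mutant array lay above every control array for 6 of the 10 (17.0% of all genes). An adjusted p under 0.10 was reached by 4 of the 10 (7.15% of all genes, with a positive difference). The summed mural intensity was 1816 to 1822 in control and 2012 to 2217 in mutant RPCs. This linear sum was set mainly by Acta2 and Tagln, with control means of 9.75 and 9.44 and log2 differences of 0.20 and 0.21. Pdgfrb and Abcc9, with control means of 3.53 and 3.70, added little to it. Of 11 erythroid genes, 1 was called higher, the embryonic globin gene Hbb-bh1 (1.00), and 9 were positive, with a median log2 difference of 0.25. Every mutant array lay above every control array for 4 of the 11 (17.0% of all genes). The erythroid sums were 8263 to 11201 in control and 11540 to 12479 in mutant RPCs. They were set mainly by the globin genes Hbb-y, Hba-x and Hbb-bh1, with control means of 12.52, 11.26 and 10.07. Hba-a1, Gata1, Epb42 and Rhag lay below the array median on all arrays. Of 14 macrophage genes, 0 were called by limma, 0 had an unadjusted p under 0.05 and none had all mutant above all control arrays. Their sums overlapped, with 1094 to 1417 in control and 1274 to 1507 in mutant RPCs. Still, 12 of the 14 were positive (47.1% of all genes), with a median log2 difference of 0.16. Leaving out 1 array changed these counts. Pigment epithelium genes called higher were 3 without control replicate 2 and 6 to 8 without any other array. Lens and surface ectoderm genes were 7 without control replicate 2, 2 without mutant replicate 2 or 3, and 3 or 4 otherwise. Mesenchyme genes were 3 without mutant replicate 1, 4 without mutant replicate 2, and 5 or 6 otherwise. Erythroid genes were 2 without control replicate 1 and 0 in the other 5 cases, while mural genes stayed at 2 and macrophage genes at 0. The part of mural and blood cells in the endothelial differences was not tested.

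**Figure D5:**
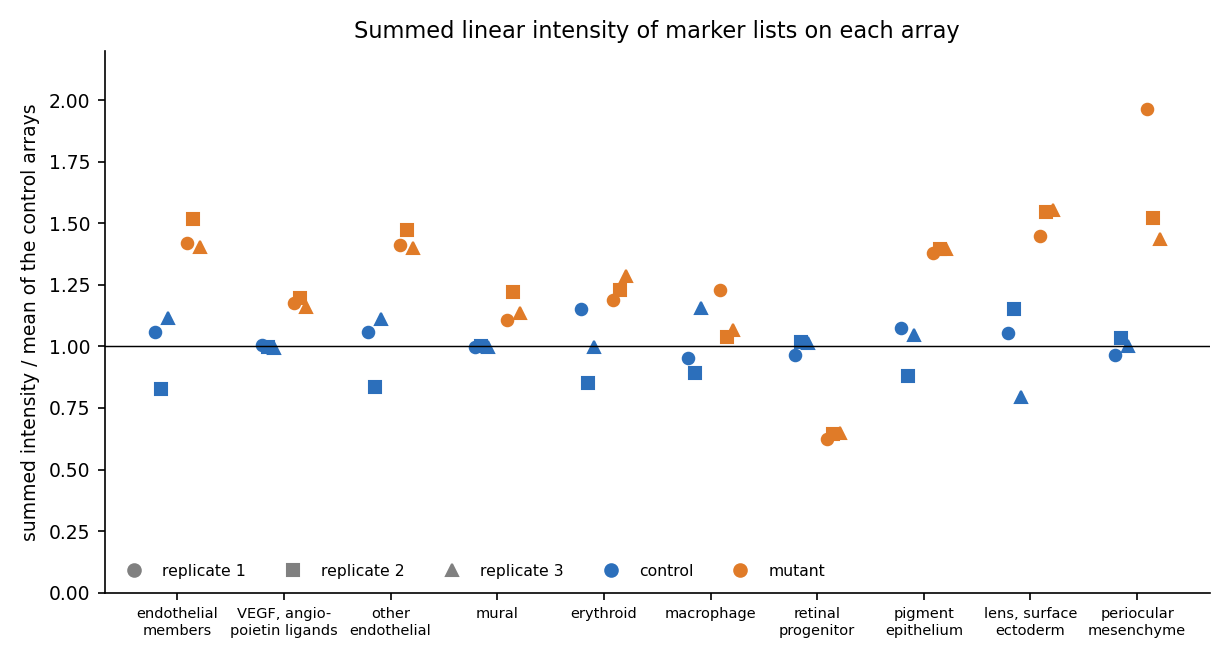
Summed linear RMA intensity of each marker list on each array (y axis), divided by the mean of the 3 control arrays, with control arrays in blue, mutant arrays in orange and a symbol for each replicate number. The endothelial sums of the mutant arrays lie above those of the control arrays, whereas the macrophage sums overlap and the progenitor sums of the mutant arrays lie below.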

How the data were processed

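RNA of 3 control and 3 mutant pools of sorted cells was hybridised to Affymetrix mouse arrays, 1 for each pool, which the labels call biological repeats. The authors deposited linear intensity values for each probe set, made with RMA in Affymetrix Expression Console (versions not given in the sources used here). RMA shrinks differences of dim probe sets, and no detection calls were used here. After 64 control probe sets were left out, log2 intensities of 45037 probe sets were fitted with limma 3.58.1 in R 4.3.3 (lmFit, eBayes, no covariate), tested on simulated data. Of these, 34945 carry 1 gene symbol in the platform annotation, 932 several and 9160 none. Lists were counted by each gene's brightest probe set, with 142 of 147 listed genes measured. Sums of linear intensity over a list weigh its bright genes most. Named were the 10 genes, the called genes of the endothelial and ligand lists, Vegfa and Angpt2, and up to 3 called genes with the largest change in each other list. Sfrp2, Rgs5, Cspg4, Kcnj8, Mcam, Notch3, Acta2, Tagln, Hbb-y, Hba-x, Hba-a1, Gata1, Epb42 and Rhag were named after their values were seen. The members and lists were chosen with earlier results of these data known. The alternatives were other variance models, a replicate block, array weights, scalings, filters, an offset of 16, no fold change threshold, the median of a gene's probe sets and each array left out. Array number limits the precision.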

Additional observations from a re-analysis of the deposited data

How the results depend on the processing

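All 235 values of the 10 genes' probe sets under the alternatives were positive, and the median of the 10 genes lay between 0.41 and 0.63. The calls were less stable. Without moderation of the variance, 0 of the 10 genes, 0 of the 15 probe sets and 1 of the 47 ligand and other endothelial genes were called higher by limma's fit, against 4, 6 and 13. An offset of 16 gave 5 of the 47, and no fold change threshold gave 23. Leaving out 1 array gave 0 to 5 genes, 0 to 8 probe sets and 4 to 16 of the 47. Angpt2 turned to -0.0067 with the median of a gene's probe sets, since its 2 probe sets were at 0.06 and -0.08. The dimmer of these lay below the array median on all 6 arrays. The cause of the changes in the calls was not tested.

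Over all probe sets 1195 were called, 460 without moderation, 517 with the offset and 4317 with no fold change threshold. Same-numbered arrays did not deviate together over all genes (correlations of -0.05, -0.04 and -0.04). These values cannot settle whether pools of the same number were handled together. With the replicate block 3 genes, 4 probe sets and 12 of the 47 were called, 1136 over all probe sets. Intensity near the array median limits the size of the changes of Angpt1, Robo4, Adgrl4 and the dimmer Flt1 and Cdh5 probe sets. On control replicate 2 the brightest Cdh5 probe set (4.11) and Fli1 (3.93) were also not far above the array medians of 3.68 to 3.71.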

Other observations

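Some probe sets that are not the brightest of their gene were called higher where the brightest was not, and 1 where it was. For Adm, which encodes the ligand adrenomedullin, 1416077_at differed by 1.08 on the log2 scale (limma adjusted p = 0.0109), against 0.30 by the brightest. For Cd93, an endothelial surface receptor, the values were 0.64 and 0.80, for the transcription factor Ets1 0.96, and for Ptprb, the endothelial phosphatase that acts on Tek, 0.59. A further probe set of Sox17 was called as well, but lay below the array median on 2 of the 3 control arrays, which leaves the size of its difference uncertain. These were named after their values were seen.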
